A study of Mus musculus with 106 samples.

Results

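The chemokine ligands and chemokine receptors of the mouse were followed through 11 tissues of animals kept at 10, 22 or 34 °C. Members were taken by gene symbol, as every Ccl, Cxcl, Cx3cl and Xcl ligand and every Ccr, Cxcr, Cx3cr and Xcr receptor that carries a number in the tables of read counts, together with Ackr3, whose older symbol is Cxcr7. The 58 members, 39 ligands and 19 receptors, were found among 25868 gene names, and 57 of them stood in each of the 4 tables. A member was tested in a tissue when the average log2 level was above 0 there, in the unit of CPM explained with the library depths. In at least 1 of 16 comparisons 49 members were tested, and 5 were tested in all of them. The 9 members tested nowhere were Ccl1, Ccl21b, Ccl21c, Ccl26, Ccl27b, Ccr8, Cxcl15, Cxcl2 and Cxcl3.

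Wild-type male C57BL/6J mice, given as C57BL/6 in part of the labels, entered the study at 8 weeks of age. Before its 2 weeks at 10 °C the cold group was acclimated in steps of 5 days, first to 18 °C and later to 14 °C, and its tissues are labelled as 11 weeks old, or 12 weeks for quadriceps. The warm group spent 4 weeks at 34 °C and is labelled as 12 weeks old, and each group had its own controls kept at 22 °C. RNA was sequenced from interscapular brown adipose tissue (iBAT), inguinal subcutaneous (ingSAT) and perigonadal visceral (pgVAT) white adipose tissue, quadriceps, ileum, liver, spleen, bone marrow, spinal cord, brain and hypothalamus for the cold, and from iBAT, ileum, liver, brain and quadriceps for the warmth. The cold and warm mice came from different vendors, so the responses at 10 and 34 °C were each set only against their own controls. Most libraries pooled RNA of 2 mice and a group held 3 of them, whereas the 6 bone marrow and 5 spinal cord libraries per group came from single mice. In warm iBAT, the 3 libraries at 22 °C and 2 of those at 34 °C were from single mice, and p-values there and elsewhere measure the spread between these libraries.

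Chemokines are small secreted proteins that attract leukocytes along a gradient, and their receptors are G protein-coupled receptors on the surface of the responding cell. Inflammatory ligands such as CCL2, CXCL9 and CXCL10 are induced by cytokines and bacterial products, whereas homeostatic ligands such as CXCL12, CXCL13, CCL19, CCL21 and CCL25 are made continuously by stroma or epithelium and place lymphocytes, granulocytes and stem cells within organs. CXCL12 signals through CXCR4, and the atypical receptor ACKR3 binds CXCL12 and removes it without activating G proteins. In adipose tissue, chemokines are best known for drawing monocytes into obese fat.

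The 105 libraries compared held between 4262403 and 58290770 counts at 10 °C (75 libraries) and between 29545458 and 62880248 at 34 °C (30 libraries). Levels are given as CPM, the counts of a gene scaled to the same library total in every sample. The marker genes of each labelled tissue were detected in every library of it, with none of its 6 to 8 markers at 0. Some libraries nevertheless held marker genes of another organ, or differed widely in those of B cells. The brain library of 22 °C replicate 2 held hepatocyte markers at 51580 CPM against 788 to 1176 CPM in the other brain libraries of that set and was left out of the comparison. In pgVAT, epididymis markers summed to 17090 and 22550 CPM in 10 °C replicates 1 and 3, to 2.88 CPM in replicate 2 and to between 652 and 2583 CPM at 22 °C. In iBAT the epididymis gene Adam7 averaged 0 CPM at 22 °C and 4.64 ± 6.18 CPM at 10 °C. In hypothalamus the hepatocyte gene Alb averaged 7.27 ± 10.3 CPM at 22 °C and 44.8 ± 66.5 CPM at 10 °C. Epididymis and pancreas genes were also found in quadriceps. B cell markers ranged from 24.4 to 723 CPM in ingSAT at 10 °C and from 6.43 to 538 CPM over the ileum libraries of the warm experiment.

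At 22 °C each tissue had its own set of abundant members. Bone marrow, spinal cord, quadriceps and all warm libraries were sequenced at another site and with another kit than the other 8 tissues, so levels were tested between tissues only within those 8 and are set side by side beyond them. Compared between genes as CPM per kb of exon, the brown fat controls of the cold experiment were led by Ackr3 at 33.3 ± 11.7 (SD, n = 3), ahead of the eosinophil attractant Ccl11 at 19.7 ± 2.07. In ingSAT and pgVAT the macrophage ligand Ccl6 led with 123 ± 41.6 and 92.5 ± 38.7 per kb. Ccl25, which homes lymphocytes to the small intestine, stood at 226 ± 21.8 per kb in ileum, and the B cell attractant Cxcl13 at 85.2 ± 7.18 in spleen. Bone marrow was led by Ccl6 at 223 ± 42.2 and Cxcr4 at 207 ± 18.7 per kb (n = 6). In spinal cord, brain and hypothalamus the neuronal ligand Cx3cl1 led with 77.5 ± 6.21 (n = 5), 148 ± 12.7 (n = 2) and 74.7 ± 4.29 (n = 3) per kb, followed each time by Cxcl14. Liver was led by Cxcl12 at 42.8 ± 5.53 and quadriceps by Cxcl14 at 28.97 ± 9.85 per kb.

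**Figure D1:**
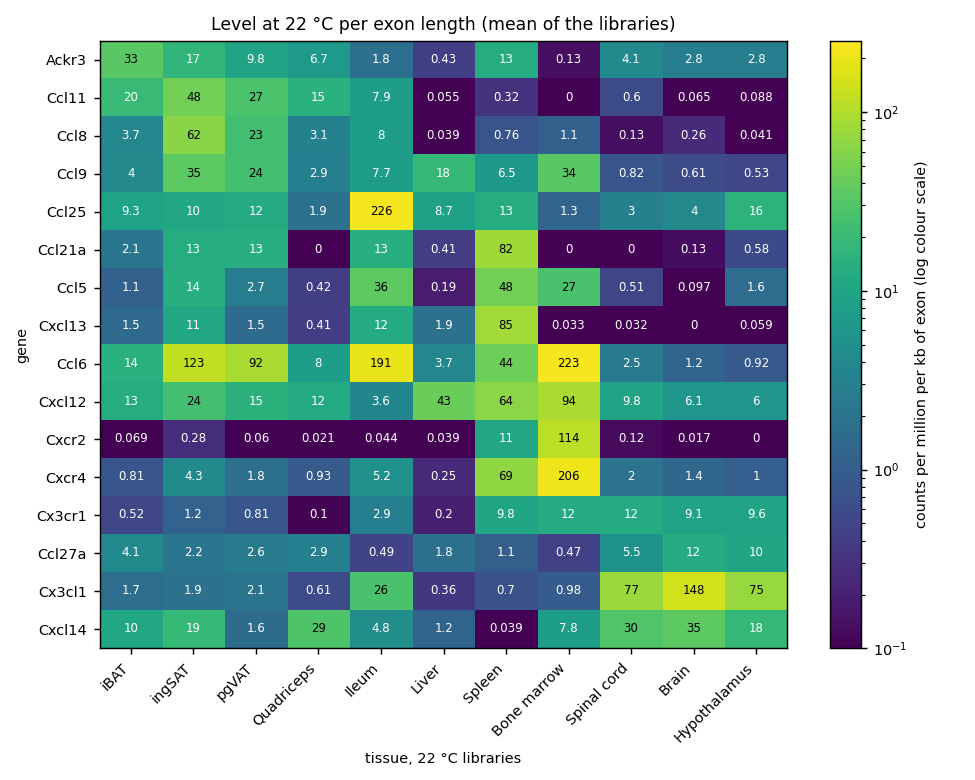
Mean level at 22 °C in CPM per kb of exon (log colour scale, number in each cell) of the members that were among the 3 highest in any of the 11 tissues of the cold experiment. Columns are tissues and rows are genes. Ccl6 was high in ileum, bone marrow and white fat, Ccl25 in ileum and Cx3cl1 in the 3 nervous tissues.

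The 8 tissues sequenced together could be ordered gene by gene. Of 40 members tested there, 17 were higher in their highest tissue than in the next one (edgeR adjusted p under 0.05), and 12 of these had their highest level in spleen. They included the lymphoid ligands Cxcl13 (74.9 ± 7.78 CPM against 13.99 ± 11.2 in ileum), Ccl21a and Ccl19, and the lymphocyte receptors Cxcr5, Ccr7, Ccr6 and Cxcr4. Ileum was highest for Ccl25 (344 ± 29.03 CPM against 24.3 ± 3.49 in liver) and for the mucosal ligand Ccl28. Brown fat was highest for Ackr3, at 130 ± 47.5 CPM against 48.2 ± 11.1 in ingSAT (edgeR adjusted p = 0.00141), and for the skin-homing receptor Ccr10, at 15.3 ± 1.74 against 4.51 ± 0.425 CPM (edgeR adjusted p = 0.000396). Without the brain library that held hepatocyte RNA, 23 members stood apart from their second tissue, the same 17 among them. The 6 added were Cx3cl1 and Cxcl14 in brain, Cxcl12 and Cxcl1 in liver, Ccl6 in ileum and Cxcr6 in spleen. Neighbours in the order often could not be separated, as for Cxcl9 in pgVAT (40.8 ± 21.6 CPM), ingSAT (30.7 ± 6.38) and iBAT (23.7 ± 2.46).

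A change of housing temperature was called when the unadjusted p was at most 0.05 and the change over 1.5-fold, the limits used in the study, and the p adjusted over all genes of the tissue (Benjamini-Hochberg) is given beside it. Over 388 tests of a member in a comparison there were 38 calls, 16 higher and 22 lower, of 26 members. Among all genes the share called ranged from 0.193% in brain to 19.4% in iBAT, both at 34 °C, and is given with each comparison. An adjusted p under 0.05 was reached in 16 tests of 16 different members. These were 3 of 29 in iBAT, 1 of 41 in ingSAT and 7 of 30 in bone marrow at 10 °C and 5 of 25 in iBAT at 34 °C. Among all genes 11.3%, 7.51% and 28.9% reached it in iBAT and ingSAT at 10 °C and in iBAT at 34 °C. In bone marrow 11.6% of all genes were lower and 7.33% higher at that limit. In 5 of the 16 comparisons no member was called. Cxcl14 alone was called in 3 comparisons, lower in ingSAT and liver and higher in bone marrow. In bulk tissue, fewer cells of a type and less RNA per cell cannot be told apart.

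By the limits of a call, the interferon-induced genes Cxcl9 and Cxcl11 and the eosinophil attractant Ccl11 fell in brown fat at 10 °C, and Cxcl12, its receptor Cxcr4 and Ccl2 rose. Of 29 tested members 7 were called, 3 higher and 4 lower, where 13.2% of all 12791 genes tested were called (6.00% higher and 7.24% lower). An adjusted p under 0.05 was reached by 3 of the 29, where 11.3% of all genes reached it. The members' median log2 fold change was −0.33 and that of all genes −0.02. Without 10 °C replicate 1, 12 members were called.

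Cxcl9, which attracts activated T cells through CXCR3, stood at 19.8, 20.02 and 16.2 CPM in the 22 °C libraries and at 9.25, 6.19 and 8.40 CPM at 10 °C. All cold libraries lay below all controls, with a log2 fold change of −1.22 ± 0.18 (SE; edgeR adjusted p = 0.00403). Cxcl11, which the annotation lists as a polymorphic pseudogene, so that its RNA need not give a protein in these mice, was at 4.84, 5.20 and 3.88 CPM at 22 °C and at 3.17, 1.36 and 1.72 CPM at 10 °C, a fold change of −1.12 ± 0.31 that was called but had an edgeR adjusted p of 0.0519. Cxcl10, also a ligand of CXCR3, overlapped between the groups and was not called (log2 fold change −0.95, edgeR adjusted p = 0.195). Ccl11 was at 23.9, 19.9 and 20.1 CPM at 22 °C and at 13.1, 9.59 and 8.40 CPM at 10 °C, without overlap (−1.03 ± 0.18, edgeR adjusted p = 0.00919). The receptor Ccr9, whose ligand is CCL25, was called lower although the groups overlapped (−0.73 ± 0.27, edgeR adjusted p = 0.112).

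Cxcl12 was the most abundant called member in brown fat, at 82.0, 91.3 and 96.0 CPM at 22 °C and at 132, 175 and 157 CPM at 10 °C. Every cold library exceeded every control (0.79 ± 0.13, edgeR adjusted p = 0.00783). Cxcr4 was low, at 1.64, 1.23 and 1.54 CPM at 22 °C and 2.72, 2.31 and 3.18 CPM at 10 °C, and also did not overlap (0.90 ± 0.25, edgeR adjusted p = 0.0514). Ccl2, the main monocyte attractant, was at 1.01, 0.895 and 0.834 CPM at 22 °C, near the level of the filter. At 10 °C its libraries 1 and 3 reached 3.32 and 3.18 CPM and library 2 stayed at 1.09 CPM, close to the controls (1.49 ± 0.42, edgeR adjusted p = 0.0519). The entry of Ccl2 into the test thus rested largely on cold libraries 1 and 3. The macrophage markers summed to between 321 and 448 CPM at 22 °C and between 283 and 435 CPM at 10 °C, with 1 of 12 called lower. Skeletal muscle markers were lower in the cold libraries (2259 to 4803 against 5789 to 8207 CPM, 5 of 6 called). Lower without overlap were also the sums of fibroblast markers (843 to 1232 against 1346 to 1751 CPM, 2 of 6 called), T cell markers (3.47 to 4.998 against 6.38 to 7.61 CPM, 1 tested and not called) and dendritic cell markers (41.5 to 46.1 against 57.5 to 72.2 CPM, 1 of 4 called). Hepatocyte markers were called lower in 4 of 5, with overlapping sums (118 to 175 against 171 to 378 CPM). Brown adipocyte markers were higher without overlap in their sum (14320 to 18040 against 8132 to 13040 CPM, 3 of 6 called higher and 1 lower). The epididymis genes Crisp1, Adam7 and Lcn5, at 0 CPM in the controls, were called higher, Adam7 reaching 4.64 ± 6.18 CPM. Their part in these results was not tested.

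Among 19 tested genes of chemokine handling and signalling that are not members, 1 was called higher and 3 lower in brown fat at 10 °C. The scavenger receptor Ackr4, which removes CCL19, CCL21 and CCL25, went from 17.04 ± 2.76 to 8.33 ± 1.33 CPM (−1.03 ± 0.18, edgeR adjusted p = 0.00837). The chemoattractant Rarres2 (chemerin) was also lower (−0.59 ± 0.13, edgeR adjusted p = 0.0238) and the Rac activator Prex1 was higher (0.63 ± 0.13, edgeR adjusted p = 0.0154). Of 15 tested inducers of chemokine genes, such as cytokines and their signalling factors, none was called, and Irf1 alone passed the adjusted limit with a smaller change (−0.46 ± 0.11, edgeR adjusted p = 0.031).

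Promoters are shown for Cxcl9 and Cxcl10, neighbours on chromosome 5 that were each called lower in a fat depot in the cold, and for Cxcr4 and Ackr3, the receptors of CXCL12 that were called in brown fat in the warmth. Each line gives the 250 bases upstream of the RefSeq start (GRCm38.p6), 5′ to 3′ on the strand of the gene, with matches to 5 short motifs in capitals. Cxcl9 lies at chr5:92328080-92328329 on the minus strand, Cxcl10 at chr5:92348890-92349139 on the minus strand, Cxcr4 at chr1:128592300-128592549 on the minus strand and Ackr3 at chr1:90203730-90203979 on the plus strand.
Cxcl9: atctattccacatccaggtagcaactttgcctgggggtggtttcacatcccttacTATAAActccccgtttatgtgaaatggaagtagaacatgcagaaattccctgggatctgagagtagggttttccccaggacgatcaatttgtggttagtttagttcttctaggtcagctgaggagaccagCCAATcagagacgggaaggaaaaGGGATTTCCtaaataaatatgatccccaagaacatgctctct
Cxcl10: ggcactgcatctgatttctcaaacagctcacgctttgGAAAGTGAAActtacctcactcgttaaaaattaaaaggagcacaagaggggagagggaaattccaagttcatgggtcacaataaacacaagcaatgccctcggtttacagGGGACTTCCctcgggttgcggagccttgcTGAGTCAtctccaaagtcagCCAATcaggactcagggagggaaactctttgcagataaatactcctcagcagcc
Cxcr4: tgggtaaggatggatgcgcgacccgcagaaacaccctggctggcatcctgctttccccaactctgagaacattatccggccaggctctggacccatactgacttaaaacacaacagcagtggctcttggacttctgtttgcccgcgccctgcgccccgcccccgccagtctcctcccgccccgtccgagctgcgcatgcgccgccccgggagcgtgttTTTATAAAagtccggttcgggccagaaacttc
Ackr3: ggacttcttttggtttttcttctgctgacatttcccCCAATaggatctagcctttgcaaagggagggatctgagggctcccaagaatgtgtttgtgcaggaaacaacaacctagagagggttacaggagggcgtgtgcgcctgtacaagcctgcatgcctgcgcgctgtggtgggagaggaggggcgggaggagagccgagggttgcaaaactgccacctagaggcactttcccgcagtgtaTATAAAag

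Both strands were searched. A kB-like motif (GGGANTTCC) was present in the windows of Cxcl9, from 42 to 34 bases before the start, and of Cxcl10, from 103 to 95 bases before it, and in 3 of 49 windows of 42 members, against 1.43% of 32851 windows of all genes. The Cxcl10 window also held an interferon response-like motif (GAAA, any 2 bases and GAAA, 2.98% of all windows) and an AP-1-like motif (TGANTCA, 6.75%). Cxcl9, Cxcr4 and Ackr3 held TATAAA (12.4% of all windows), which in Cxcr4 overlaps its own match on the other strand, and Cxcl9, Cxcl10 and Ackr3 held CCAAT (33.8%). These are matches of letters and were not tested for binding.

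**Figure D2:**
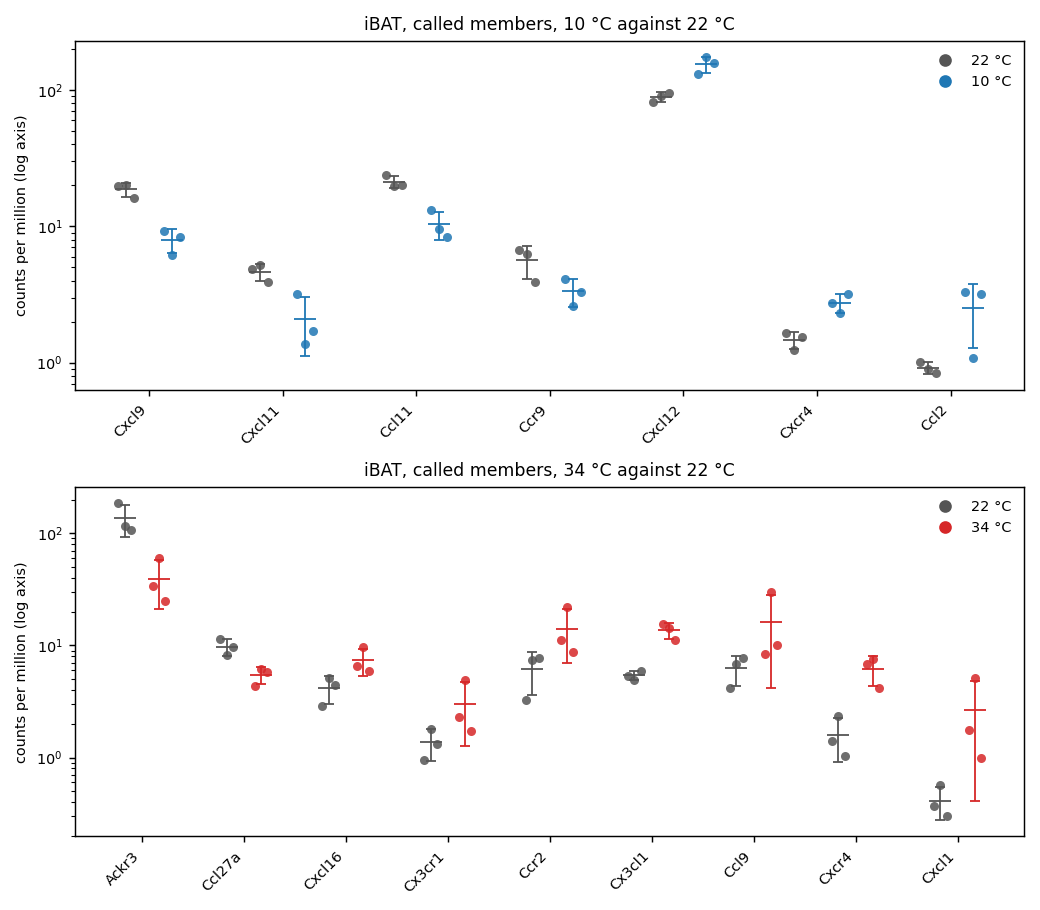
Level of called members in iBAT in CPM (log axis), for 10 °C (upper panel) and 34 °C (lower panel) against the controls of the same experiment. Points are libraries, long bars are means and whiskers are SD (n = 3 per group). Cxcl9, Cxcl11 and Ccl11 lay below and Cxcl12 and Cxcr4 above all controls at 10 °C, and Ackr3 and Ccl27a lay below all controls at 34 °C.

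In subcutaneous white fat at 10 °C members were called less often than all genes, and the 2 called higher were Ccr10 and its ligand Ccl27a. Of 41 tested members 5 (12.2%) were called, 2 higher and 3 lower, where 16.3% of all 13982 genes tested were called (7.20% higher and 9.14% lower). An adjusted p under 0.05 was reached by 1 of the 41, where 7.51% of all genes reached it. Ccr10 was at 5.16, 5.32 and 4.35 CPM at 22 °C and at 10.9, 8.21 and 11.3 CPM at 10 °C, without overlap (1.03 ± 0.21, edgeR adjusted p = 0.0354). Its ligand Ccl27a was at 4.01, 2.55 and 3.50 CPM at 22 °C and at 5.64, 5.83 and 7.11 CPM at 10 °C, again without overlap (0.89 ± 0.26, edgeR adjusted p = 0.0799). Ccl27a has a near-identical copy, Ccl27b, so its counts are uncertain. The brown adipocyte markers rose in the same libraries, from between 154 and 209 CPM to between 2358 and 3025 CPM, with all 6 called higher, and iBAT had the highest Ccr10 level of the 8 tissues at 22 °C. Their part in the Ccr10 result was not tested.

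Cx3cr1, the fractalkine receptor of monocytes and macrophages, was called lower in ingSAT, from 7.55, 4.33 and 3.76 CPM to 2.49, 3.60 and 2.07 CPM (−0.93 ± 0.37, edgeR adjusted p = 0.158). Cxcl14 (−0.85 ± 0.30, edgeR adjusted p = 0.125) and Cxcl12 (−0.59 ± 0.23, edgeR adjusted p = 0.15) were also called lower, although each overlapped between the groups. The Cxcl12 call was lost under 8 of 11 alternatives, DESeq2 and the omission of any 1 library but 22 °C replicate 3 among them, with values between −0.80 and −0.45. Fibroblast markers, of which 4 of 6 were called lower, summed to 17870, 11860 and 4130 CPM at 22 °C and to 5005, 2699 and 3376 CPM at 10 °C. Of the macrophage markers 7 of 12 were called lower, and their sum went from between 1634 and 2967 to between 1359 and 1677 CPM. The part of both in these results was not tested. The lymphoid members were spread within the groups rather than between them. Ccr7, which guides cells to lymph nodes, stood at 10.9, 10.4 and 14.7 CPM at 22 °C and at 0.746, 30.4 and 15.9 CPM at 10 °C, where the same libraries held B cell markers at 24.4, 723 and 472 CPM. The number of calls was 12 without 10 °C replicate 1, 2 without 10 °C replicate 3, 3 without 22 °C replicate 1 and 9 without 22 °C replicate 3. Of 23 tested genes of chemokine handling 3 were called lower, the atypical receptors Ackr1 and Ackr2 and Rarres2.

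In visceral fat at 10 °C all calls were ligand genes, Cxcl11 among them, and all were lower. Of 35 tested members 4 were called, where 7.94% of all 14856 genes tested were called (4.46% higher and 3.47% lower). None passed the adjusted limit (edgeR adjusted p = 0.593 for each of the 4). In counts simulated for this tissue, that limit was passed by 0% of changes of 1 log2 unit and 6.19% of changes of 2. Ccl7, a monocyte attractant close to CCL2, was at 4.95, 3.88 and 6.30 CPM at 22 °C and at 1.66, 0.915 and 1.13 CPM at 10 °C (−2.01 ± 0.46). Ccl2 was at 7.03, 8.32 and 5.21 CPM at 22 °C and at 2.14, 2.39 and 1.20 CPM at 10 °C (−1.84 ± 0.43). The cold libraries of both lay below all controls.

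Cxcl11 went from 19.3, 12.3 and 31.3 CPM to 5.30, 7.18 and 1.91 CPM (−2.12 ± 0.56), and Cxcl10 from 14.1, 8.87 and 15.4 CPM to 5.40, 8.16 and 2.76 CPM (−1.23 ± 0.46), each without overlap. The lowest Cxcl10 control was close to the highest cold library. Cold libraries 1 and 3 were those with epididymis markers, and with only cold library 2, which held 2.88 CPM of them, 7 members were called. Ccl7 (−2.42), Ccl2 (−1.50) and Cxcl11 (−1.51) were then still called and Cxcl10 (−0.63) was not. Without cold library 2, 15 members were called. Cx3cl1 reached 48.7 CPM in cold library 3 against 11.8 and 4.50 CPM in the other two and was not called. Macrophage markers summed to between 961 and 1518 CPM at 22 °C and between 707 and 1497 CPM at 10 °C, with none called.

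**Figure D3:**
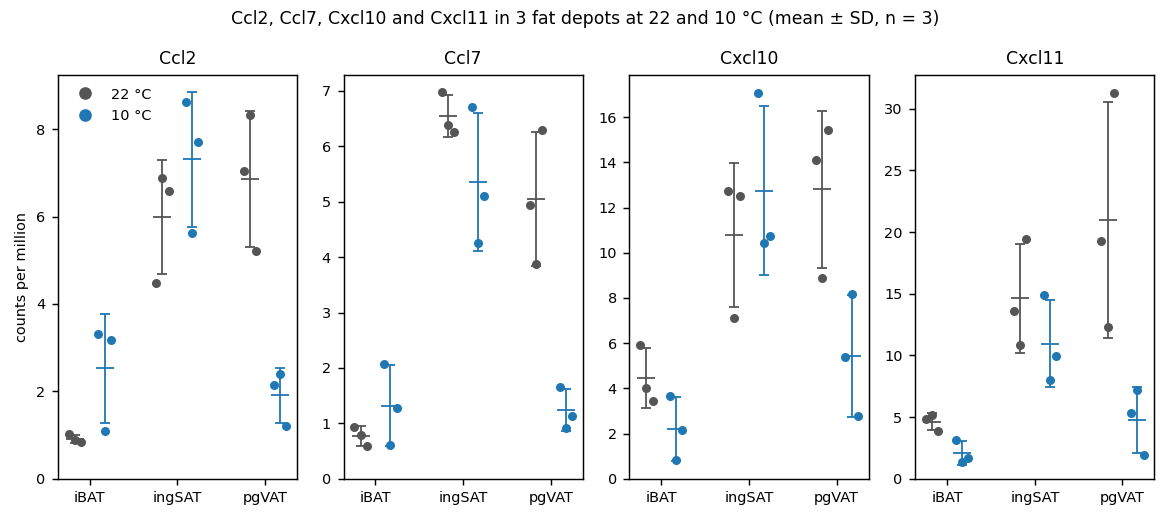
Levels of Ccl2, Ccl7, Cxcl10 and Cxcl11 in CPM in iBAT, ingSAT and pgVAT at 22 °C (grey) and 10 °C (blue). Points are libraries, long bars are means and whiskers are SD (n = 3 per group). In pgVAT the cold libraries of all 4 ligands lay below the controls, whereas Ccl2 in iBAT lay above them.

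The difference of the cold response between depots was tested directly in 1 fit of the 3 depots. Ccl2 responded differently in iBAT and pgVAT, by 3.34 log2 units (95% interval 2.14 to 4.53, edgeR adjusted p = 0.0191), and so did Ccl7, by 2.84 log2 units (1.64 to 4.04, edgeR adjusted p = 0.0446). Only Ccl2 passed with scaling by library size (3.22) or with the lowest filter (3.30), and Ccl7 did not. These were 2 of 39 members tested, where 0.407% of all 14482 genes passed. The iBAT controls of Ccl2 lay near the level of the filter. With pgVAT 10 °C replicate 2 alone, 6 differences passed over the 3 pairs of depots, and those of Ccl2 (3.01, edgeR adjusted p = 0.0479) and Ccl7 (3.28, edgeR adjusted p = 0.0474) were among them. Between iBAT and ingSAT no member passed by edgeR, with 7 at an unadjusted p under 0.05, and 0.0691% of all genes passed. Cxcl12, higher in iBAT and lower in ingSAT, differed there by 1.40 (edgeR adjusted p = 0.203), and by 1.32 in the fit with pgVAT 10 °C replicate 2 alone (edgeR adjusted p = 0.0236). Between ingSAT and pgVAT none passed, with 10 at an unadjusted p under 0.05, where 0.159% of all genes passed.

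In brown fat at 34 °C more members were called higher than lower, as were more of all genes. Of 25 tested members 8 were called higher and 2 lower, where 12.2% and 7.19% of all 12331 genes tested were (19.4% together). An adjusted p under 0.05 was reached by 5 of the 25, 3 higher and 2 lower, where 28.9% of all genes reached it. The members' median log2 fold change was 0.43 and that of all genes 0.03. The largest change was that of Cxcl1, which draws neutrophils (2.67 ± 0.66, edgeR adjusted p = 0.0234). It stood at 0.368, 0.565 and 0.301 CPM at 22 °C and at 1.74, 5.16 and 0.996 CPM at 34 °C, without overlap. Its controls lay below the level of the filter, so it entered the test only through the warm libraries. Without 34 °C replicate 2, its highest library, it did not enter the test. It was thus tested under 9 alternatives, against 10 for the other members called here. Cx3cl1, the membrane-bound ligand fractalkine, was at 5.37, 4.90 and 5.94 CPM at 22 °C and at 15.6, 14.3 and 11.1 CPM at 34 °C (1.34 ± 0.17, edgeR adjusted p = 0.00276). Its receptor Cx3cr1 was called higher too, although the groups overlapped (1.13 ± 0.46, edgeR adjusted p = 0.0999).

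Both receptors of CXCL12 changed in the warmth, in opposite directions. Cxcr4 was at 1.40, 2.35 and 1.04 CPM at 22 °C and at 6.88, 7.56 and 4.13 CPM at 34 °C (1.96 ± 0.38, edgeR adjusted p = 0.0103). Ackr3, the leading member of brown fat at 22 °C, was at 186, 115 and 107 CPM in the controls and at 34.0, 59.8 and 24.7 CPM at 34 °C (−1.79 ± 0.35, edgeR adjusted p = 0.0112). Neither overlapped between the groups. Cxcl12 itself was at 146 CPM on average at 22 °C and was not called (−0.40, edgeR adjusted p = 0.153). Ccl27a went from 11.5, 8.17 and 9.66 CPM to 4.36, 6.13 and 5.77 CPM (−0.85 ± 0.20, edgeR adjusted p = 0.02), and Ccr10, its receptor, was low and not called (−0.83, edgeR adjusted p = 0.144).

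Further calls were genes of monocytes and macrophages, with edgeR adjusted p-values between 0.0676 and 0.0766. The macrophage ligand Ccl9 stood at 4.16, 6.78 and 7.75 CPM at 22 °C and at 8.30, 29.9 and 10.2 CPM at 34 °C (1.37 ± 0.50). The CCL2 receptor Ccr2 stood at 3.24, 7.40 and 7.78 CPM and at 11.3, 21.9 and 8.67 CPM (1.18 ± 0.43). Cxcl16, the ligand of CXCR6, changed by 0.81 ± 0.28, and none of these 3 genes overlapped between the groups. Library 2 at 34 °C was the highest of all libraries for each of them. Without 34 °C replicate 2, 4 members were called, namely Cx3cl1 and Cxcr4 higher and Ackr3 and Ccl27a lower. Without 22 °C replicate 1, 5 were called. Macrophage markers summed to between 216 and 339 CPM at 22 °C and between 368 and 571 CPM at 34 °C, the highest in that library, with 3 of 12 called higher and none of the 12 at 0. Endothelial markers were called higher in 4 of 6 and brown adipocyte markers lower in 3 of 6. Their part in these results was not tested.

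Of 20 tested genes of chemokine handling and signalling, 7 were called higher and none lower in warm brown fat. Rarres2 went from 52.0 ± 6.68 to 129 ± 21.8 CPM (1.31 ± 0.15, edgeR adjusted p = 0.00207), whereas in iBAT and ingSAT at 10 °C it was called lower. The platelet chemokine Pf4 (0.88 ± 0.27, edgeR adjusted p = 0.0457) and the migration adaptor Elmo1 (1.04 ± 0.18, edgeR adjusted p = 0.0076) were also higher. Among 15 tested inducers of chemokine genes 5 were called higher, led by Tnfaip3, a target and inhibitor of NF-κB (1.58 ± 0.22, edgeR adjusted p = 0.00351).

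The warm response of brown fat was set against that of ileum and liver in 1 fit. Cxcr4 (difference 4.25 log2 units, 95% interval 1.94 to 6.56), Ackr3 (−2.24, −3.25 to −1.23) and Cx3cl1 (1.21, 0.63 to 1.79) differed between iBAT and ileum with edgeR adjusted p-values of 0.0173, 0.00653 and 0.00896. These were 3 of 33 members, where 15.9% of all 13546 genes passed. Between iBAT and liver 1 of 33 members passed, Cx3cr1 (2.21, 1.01 to 3.41, edgeR adjusted p = 0.0248), where 8.80% of all genes passed. Cx3cr1 did not pass the filter in liver alone, so its change there was not tested, and its groups overlapped in iBAT. Between ileum and liver no member passed by edgeR, with 7 at an unadjusted p under 0.05, where 0.0221% of all genes passed. Cxcr4 in ileum is one of the members that varied with B cell markers.

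In ileum the lymphoid members varied widely within the groups. At 10 °C no member of 36 was called by edgeR's quasi-likelihood test, its exact test or DESeq2, where 2.71% of all 14081 genes tested were called, and 4 members had an unadjusted p under 0.05. The members' median log2 fold change at 10 °C was −0.275 and that of all genes −0.006. Among the T cell markers Cd28 (−0.86), Cd3e (−0.64) and Cd4 (−0.61) were called lower and none higher, with edgeR adjusted p-values from 0.0913 to 0.252. Their part in the members' median was not tested. Without 10 °C replicates 1 or 3, or 22 °C replicates 1 or 3, 1, 5, 2 and 1 members were called. At 34 °C the chemokine receptor Cxcr3 of T cells (−1.15 ± 0.46) and the ligand Ccl22 (−0.74 ± 0.30) were called lower out of 31. Each had an edgeR adjusted p of 0.594, where 2.83% of all 13023 genes tested were called (1.26% lower). Both calls were absent without 22 °C replicates 1 or 3 or 34 °C replicates 2 or 3, which left 0, while 4 members were called without 22 °C replicate 2 and 10 without 34 °C replicate 1.

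Cxcr5, the chemokine receptor of B cells for CXCL13, stood at 21.8, 4.60 and 28.1 CPM in ileum at 22 °C and at 12.7, 0.131 and 0.203 CPM at 34 °C. B cell markers in the same libraries summed to 371, 89.8 and 538 CPM and to 244, 6.43 and 8.53 CPM. Cxcl13, Ccr6, Ccr7, Ccl19 and Cxcr4 were likewise highest in replicate 1 of the warm group and lowest in replicate 2 of the controls, and none was called. The part of the B cell content in these levels was not tested.

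In liver, Cxcl14 at 10 °C went from 1.33, 3.25 and 2.26 CPM to 1.23, 0.861 and 0.741 CPM, without overlap (−1.28 ± 0.37, edgeR adjusted p = 0.136). Cxcl10 was called higher with overlapping groups (0.87 ± 0.36, edgeR adjusted p = 0.238). These were 2 of 20 tested members, where 3.28% of all 12026 genes tested were called (0.740% higher and 2.54% lower). Without 10 °C replicate 3, 1 member was called and without 22 °C replicate 3, 4 were. At 34 °C 1 of 12 members was called, Cxcl9, from 4.82, 7.14 and 4.86 CPM to 10.6, 13.4 and 6.87 CPM with an overlap (0.88 ± 0.26, edgeR adjusted p = 0.239), where 3.38% of all 11179 genes tested were called, and without 34 °C replicate 1, 3 were called. Cxcl12, the most abundant member of liver per length, was not called at either temperature.

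In quadriceps no member of 15 was called at 10 °C by edgeR or DESeq2, none had an unadjusted p under 0.05, and 3.83% of all 11841 genes tested were called. Without 10 °C replicate 3, 1 was called. At 34 °C Ccl25 (−0.69 ± 0.23) and Cx3cl1 (−0.59 ± 0.23) were called lower out of 16 without overlap, each with an edgeR adjusted p of 1.0, where 1.21% of all 11752 genes tested were called (0.919% lower). Neither was called when the other 3 quadriceps libraries kept at 22 °C, or all 6 of them, served as controls. The count was 1 without 34 °C replicate 1 or 3 and 0 without 22 °C replicate 2. Marker genes of other tissues were called in quadriceps. At 10 °C the brown adipocyte marker Ucp1 went from 0.167 ± 0.198 to 81.0 ± 48.0 CPM and the adipocyte marker Fabp4 from 165 ± 39.7 to 431 ± 197 CPM. The epididymis gene Crisp1 went from 0 to 41.4 ± 71.7 CPM and the pancreas gene Ctrb1 from 182.5 ± 312.9 to 0.0114 ± 0.0198 CPM. At 34 °C Ucp1 went from 2.76 ± 3.72 to 0 CPM, and Cidea and Plin1 were also called lower. Their part in these results was not tested.

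In spleen the neutrophil receptor Cxcr2 was lower in the cold, at 29.2, 36.9 and 34.5 CPM at 22 °C and at 24.6, 21.5 and 19.7 CPM at 10 °C (−0.60 ± 0.12, edgeR adjusted p = 0.37). Cxcl5, a ligand of CXCR2, was at 1.26, 1.62 and 2.78 CPM and at 1.12, 0.637 and 0.918 CPM (−1.07 ± 0.38, edgeR adjusted p = 0.485). Neither overlapped between the groups. They were 2 of 38 tested members, where 2.68% of all 14117 genes tested were called (2.04% lower). The neutrophil markers fell in the same libraries, from between 397 and 695 to between 157 and 181 CPM, with 7 of 7 tested called lower, and their part in the Cxcr2 result was not tested. The number of calls was 4 without 10 °C replicate 1, and 1 without 10 °C replicate 2, 10 °C replicate 3 or 22 °C replicate 3.

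In bone marrow, 7 of 30 tested members passed the adjusted limit, 5 lower and 2 higher, where 11.6% of all 12525 genes were lower and 7.33% higher. All 7 but Cxcl14 changed by less than 1.5-fold. Cxcr2 ranged from 262 to 426 CPM at 22 °C (median 342) and from 183 to 310 CPM at 10 °C (median 232), a log2 fold change of −0.56 ± 0.12 (edgeR adjusted p = 0.00814). Ccr1, an inflammatory receptor of monocytes and neutrophils, ranged from 104 to 186 CPM (median 140) and from 81.0 to 118 CPM (median 95.7), a change of −0.56 ± 0.12 (edgeR adjusted p = 0.00788). Its ligand Ccl9 changed by −0.53 ± 0.13 (edgeR adjusted p = 0.011) and the monocyte receptor Ccr2 by −0.37 ± 0.10 (edgeR adjusted p = 0.0226). These 4 overlapped between the groups, with the cold medians below the controls. Cxcr3 was lower by a smaller change of −0.24 ± 0.08 without overlap (edgeR adjusted p = 0.035).

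Ccr7 ranged from 13.6 to 18.2 CPM at 22 °C (median 14.8) and from 18.6 to 21.4 CPM at 10 °C (median 18.9), so that all cold marrows lay above all controls (0.35 ± 0.07, edgeR adjusted p = 0.00657). Cxcl14 ranged from 7.98 to 18.7 CPM (median 14.8) and from 14.5 to 25.2 CPM (median 24.3) and was the only one of the 7 with a change over 1.5-fold (0.63 ± 0.19, edgeR adjusted p = 0.0292). Cxcr1, a further neutrophil receptor, was called lower with an edgeR adjusted p of 0.055 (−1.24 ± 0.43), its cold libraries between 0.358 and 2.16 CPM and its controls between 1.06 and 4.68 CPM. With Cxcl14 these were 2 calls, 1 higher and 1 lower, where 1.29% of all 12525 genes tested were called (0.647% in each direction). The retention pair of the marrow, Cxcl12 (0.17, edgeR adjusted p = 0.624) and Cxcr4 (0.00, edgeR adjusted p = 0.978), was not called. The number of calls rose to 8 without 22 °C replicate 3 and to 5 without 22 °C replicate 4 or 10 °C replicate 3.

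Markers of blood cell types moved in the same marrows. Neutrophil markers summed to between 27420 and 40720 CPM at 22 °C and between 25080 and 27540 CPM at 10 °C, with 5 of 7 lower at an edgeR adjusted p under 0.05. Monocyte markers went from between 4358 and 6562 to between 3911 and 4292 CPM, with 6 of 6 lower, and B cell markers from between 595 and 820 to between 818 and 959 CPM, with 4 of 8 higher. Of 21 tested genes of chemokine handling and signalling, 10 were lower at that limit and none higher, among them Arrb2, which uncouples activated receptors (−0.38 ± 0.05, edgeR adjusted p = 0.00274), and the leukocyte GTPase Rac2 (−0.26 ± 0.06, edgeR adjusted p = 0.0125). Of 18 tested inducers 8 were lower and 1 higher. The part of cell composition in the member results was not tested.

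**Figure D4:**
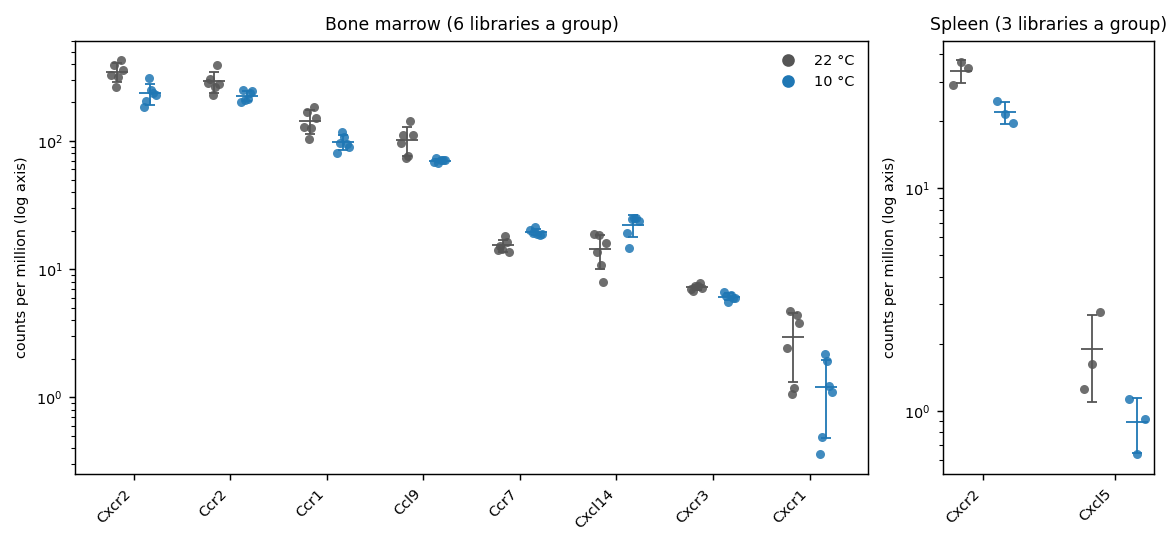
Levels in CPM (log axis) of the members named in bone marrow (6 libraries per group) and spleen (3 per group) at 22 °C (grey) and 10 °C (blue). Points are libraries, long bars are means and whiskers are SD. Cxcr2 was lower in the cold in both organs, with overlap in bone marrow and none in spleen.

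The nervous tissues changed little. In brain at 10 °C 1 of 14 members was called, Ccl9, from 1.63 and 2.07 CPM to 0.953, 1.27 and 1.27 CPM (−0.69 ± 0.28, edgeR adjusted p = 0.484), where 0.801% of all 13976 genes tested were called. It was not called without 10 °C replicate 1 or 22 °C replicate 3, which left 0. In the left-out control that held hepatocyte markers Ccl9 stood at 41.4 CPM, and with that library included its change was −4.13 (edgeR adjusted p = 0.706). In hypothalamus and spinal cord no member of 19 and 14 was called by edgeR or DESeq2, with 3 and 1 at an unadjusted p under 0.05, where 0.578% of 14526 and 0.271% of 14382 genes tested were called. Without 22 °C replicate 2, 2 were called in hypothalamus. In brain at 34 °C none of 13 was called by edgeR or DESeq2 and 2 had an unadjusted p under 0.05, where 0.193% of 13978 genes tested were called, and without 34 °C replicate 2, 1 was called.

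Cxcl12 was higher by less than 1.5-fold in both brain samplings at 10 °C. It was at 47.4 and 39.5 CPM in brain at 22 °C and at 59.2, 57.9 and 54.9 CPM at 10 °C (0.41 ± 0.09, edgeR adjusted p = 0.104), and at 42.1, 47.4 and 39.1 CPM in hypothalamus at 22 °C and at 59.7, 55.2 and 52.0 CPM at 10 °C (0.38 ± 0.08, edgeR adjusted p = 0.36). The groups did not overlap in either tissue, and neither change was called. Cxcl14 in spinal cord ranged from 51.3 to 59.6 CPM (median 53.8) at 22 °C and from 62.0 to 76.2 CPM (median 64.8) at 10 °C, also without overlap and not called (0.28 ± 0.06, edgeR adjusted p = 0.777). Cx3cl1, the most abundant member there, changed by 0.07, −0.02 and 0.08 log2 units in brain, hypothalamus and spinal cord at 10 °C.

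Seen across tissues, the CXCL12 axis had its calls in fat. The log2 fold change of Cxcl12 at 10 °C was 0.79 in iBAT, −0.59 in ingSAT, where the call was lost under most alternatives, and between −0.40 and 0.41 in the other 9 tissues. Cxcr4 changed by 0.90 in iBAT at 10 °C and by 1.96 at 34 °C, both called, and it was not called in any of the other 12 comparisons that tested it. Ackr3 was called in iBAT at 34 °C and in none of the other 13 comparisons that tested it, among them iBAT at 10 °C (−0.42, edgeR adjusted p = 0.262).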

How the data were processed

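RNA was sequenced from 11 tissues, and the authors deposited raw counts per gene in 4 tables, with reads mapped to mm10 by STAR and counted by HTSeq. The submitters' processing notes name STAR 2.5.3a, Picard 1.141 and HTSeq 0.6p1. A treatment note shared by all samples states 34 °C, so temperatures were taken from titles and treatment labels. Per tissue, a gene entered the test when its mean log2 CPM exceeded 0. Libraries were scaled by TMM and genes tested with edgeR 4.0.16 (quasi-likelihood F-test, R 4.3.3, two-sided) against the controls of the same experiment, with p adjusted by Benjamini-Hochberg over all genes tested. Differences between tissues were interaction terms. Alternatives were edgeR's exact test, DESeq2 1.42.0, scaling by library size only, a lower filter, a replicate block, other control libraries and leaving out each library, plus pgVAT 10 °C replicate 2 alone and levels without brain 22 °C replicate 2, both chosen after seeing the data.

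The deposited group means of the authors matched brain 22 °C replicates 1 and 3 in 1960 of 1960 genes, so replicate 2 was left out, and matched 1 set of 3 quadriceps controls in 1999 of 1999 genes. That set was used at 10 °C, and the other 3 controls, named like the 34 °C libraries (12 genes matching), at 34 °C. Groups of 2 to 6 libraries limit precision, and total counts ranged from 4262403 to 62880248. The fits were tested on counts simulated with known changes for 3 of the comparisons at 10 °C. Changes of 1 log2 unit were called in 91% of cases in iBAT, 96% in bone marrow and 51% in pgVAT. They passed the adjusted limit in 65.6%, 95.9% and 0%. Changes of 2 log2 units passed it in 99.0%, 100% and 6.19%. Members and lists were chosen with earlier results of these data known. The rule for naming took members under the adjusted limit, up to 6 calls per comparison by size and those called in 3 comparisons. It also took the 3 highest per tissue per exon length, and of each other list up to 3 called genes. Further genes outside this rule were named with their values known, Cxcl12 in brain and hypothalamus and Cxcr5 in ileum among them. ingSAT and pgVAT at 34 °C were not analysed here. The values of 1 member, which stays in the counts, are not reported here.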

Additional observations from a re-analysis of the deposited data

Results flagged for a closer look

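Of 26 groups of 4 to 10 libraries examined, 1 had a library far from the rest. Cx3cr1 in spinal cord at 10 °C was 38.8 CPM in its lowest library and between 49.6 and 53.8 CPM in the other 4, and chance alone marks about 1 in 20 such groups.

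The response to 10 °C differed between iBAT and pgVAT for Ccl2 by 3.34 log2 units and for Ccl7 by 2.84 log2 units. The response to 34 °C differed between iBAT and ileum for Cxcr4 by 4.25, for Cx3cl1 by 1.21 and for Ackr3 by −2.24 log2 units. It differed between iBAT and liver for Cx3cr1 by 2.21 log2 units, although Cx3cr1 did not pass the filter in liver alone. Cx3cl1 at 34 °C was higher in every iBAT library than in its controls (log2 fold change 1.34). It was lower in every quadriceps library than in the set of controls used there (−0.59). The quadriceps call was lost under 8 of 12 alternatives, both other choices of controls among them, with values between −0.78 and −0.16. The difference between these tissues was not tested.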

How the results depend on the processing

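Groups of 3 libraries, cell composition and marker genes of other organs limit these results, and members under about 1 CPM rest on few counts. Of 38 calls, 19 were kept under every alternative in which the gene was tested, 19 were lost under at least 1 and 0 reversed. The 19 kept include Cxcl1 in iBAT at 34 °C, which did not enter the test without 34 °C replicate 2. Leaving out 1 library at a time, the number of members called ranged from 6 to 12 in iBAT (7 with all libraries), 2 to 12 in ingSAT (5), 3 to 15 in pgVAT (4), 0 to 1 in quadriceps (0), 0 to 5 in ileum (0), 1 to 4 in liver (2), 1 to 4 in spleen (2), 2 to 8 in bone marrow (2), 0 to 0 in spinal cord (0), 0 to 1 in brain (1) and 0 to 2 in hypothalamus (0) at 10 °C. At 34 °C it ranged from 4 to 14 in iBAT (10), 0 to 10 in ileum (2), 1 to 3 in liver (1), 0 to 1 in brain (0) and 0 to 2 in quadriceps (2). Where a lone library remained it was assumed to vary like the others.

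With the lowest filter the counts were 11 in iBAT, 4 in bone marrow, 2 in spinal cord and 3 in hypothalamus at 10 °C, and 6 in liver, 2 in brain and 5 in quadriceps at 34 °C, where more genes entered the test. The exact test of edgeR called 4 in bone marrow at 10 °C and 4 in ileum at 34 °C, and DESeq2 called 4 in that ileum comparison and 0 in brain at 10 °C. With pgVAT 10 °C replicate 2 alone 7 were called, and quadriceps at 34 °C had 1 with all 6 controls and 1 with the other 3. Differences between fat depots numbered 1 with library size only, 1 with the lowest filter (Ccl2 both times, Ccl7 being lost) and 6 with pgVAT 10 °C replicate 2 alone, against 2, and differences between tissues at 34 °C numbered 9 with library size only, against 4. Levels at 22 °C set 23 members apart from their second tissue without brain 22 °C replicate 2, against 17. The cause of these shifts was not tested. Marker genes reversed in 4 cases, Klrb1c in pgVAT (−0.13 with replicate 2 alone), Alb in brain at 10 °C (−11.93 with all 3 controls), Pomc in Brain at 10 C (from −3.24 to 0.11 without 1 library) and Alb in Hypothalamus at 10 C (from −0.27 to 5.05 without 1 library).

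With the replicate block 9 members were called in iBAT, 4 in ingSAT, 4 in pgVAT, 3 in ileum, 2 in liver, 3 in spleen, 2 in bone marrow, 0 in spinal cord, 1 in brain and 0 in hypothalamus, and 2 depot differences passed. In no tissue did every pair of libraries with the same number deviate together (correlation over 0.1), nor did every library correlate best with its own number, so the numbers were treated as names.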
